A study of Rattus norvegicus with 10 samples.

Results

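The genes described here lie in the major histocompatibility region of the rat, RT1, on chromosome 20. They were taken by position, as every row of the deposited gene table with a start at or after 154074 and an end at or before 5421098 on chromosome 20 of the Rnor_6.0 build, which gave 98 of 12828 genes. Among them, 10 were RT1 class I genes, 4 were RT1 class II genes and 84 were other genes, of which 72 were protein-coding. The region was selected on the fold changes of the comparison described below, so those fold changes are given as a description and no test is drawn from them.

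The study fed pregnant Wistar rats, an outbred stock, a diet with folic acid or one with the reduced folate 5-methyltetrahydrofolate (MTHF), each at 5 times the recommended amount and throughout pregnancy. The groups were named 5X-FA and 5X-MTHF, with 5 dams in each, and the labels name no mutation or transgene. RNA was taken at parturition from the arcuate nucleus, a hypothalamic nucleus that regulates feeding, which had been cut by hand from frozen brain. The comparison asks which genes differed in the dams' arcuate nucleus between the 2 forms of folate. In bulk tissue, fewer cells of a type and less RNA per cell cannot be told apart.

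The major histocompatibility complex holds the genes for proteins that display peptides to T cells. Class I molecules are made by most cells and show peptides from inside the cell, which the proteasome cuts and the TAP transporter carries into the endoplasmic reticulum. Class II molecules pair an alpha and a beta chain, show peptides from material taken up, and in brain are found mainly on microglia and on macrophages of the meninges and vessels. The region also holds complement, signalling and housekeeping genes that have no part in antigen display.

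The promoters of the class II genes are shown because these 4 genes had the most alike fold changes of the RT1 groups, and those of RT1-CE5 and RT1-A1 are shown beside them as class I genes on either side of 0. Sequences are from RefSeq on build GRCr8, from 250 bases before to 50 after the gene start, and their coordinates cannot be set beside those of the table, which are on Rnor_6.0. By symbol, 61 of the 98 genes had a RefSeq promoter, among them 9 of the 10 class I genes and 4 of the 4 class II genes. The windows were chr20:4604069-4604368 on the minus strand, chr20:4576807-4577106 on the plus strand, chr20:4560113-4560412 on the minus strand, chr20:4515165-4515464 on the plus strand, chr20:3484041-3484340 on the minus strand and chr20:4906959-4907258 on the plus strand, in the order printed. Capitals mark matches, on either strand, to AGNNACNGA (the core of the class II X box, bound by RFX proteins), CCAAT (the Y box, bound by NF-Y), TGACG (bound by CREB-type factors), ACTGANGA and the kappaB-like GGGGANNCC, and matches to ACTGANGA can share bases with matches to AGNNACNGA or TGACG.
RT1-Bb: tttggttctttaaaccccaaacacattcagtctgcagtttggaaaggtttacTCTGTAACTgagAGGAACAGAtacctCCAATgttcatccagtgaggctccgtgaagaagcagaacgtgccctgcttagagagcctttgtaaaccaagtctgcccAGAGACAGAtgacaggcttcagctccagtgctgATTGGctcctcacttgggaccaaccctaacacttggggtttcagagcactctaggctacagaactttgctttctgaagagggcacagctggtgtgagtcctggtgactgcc
RT1-Ba: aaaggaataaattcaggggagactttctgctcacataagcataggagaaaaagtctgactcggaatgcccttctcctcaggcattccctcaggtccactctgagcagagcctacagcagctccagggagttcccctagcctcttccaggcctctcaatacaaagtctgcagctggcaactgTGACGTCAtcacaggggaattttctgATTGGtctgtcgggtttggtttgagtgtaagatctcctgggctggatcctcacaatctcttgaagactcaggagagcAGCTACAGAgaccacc
RT1-Db1: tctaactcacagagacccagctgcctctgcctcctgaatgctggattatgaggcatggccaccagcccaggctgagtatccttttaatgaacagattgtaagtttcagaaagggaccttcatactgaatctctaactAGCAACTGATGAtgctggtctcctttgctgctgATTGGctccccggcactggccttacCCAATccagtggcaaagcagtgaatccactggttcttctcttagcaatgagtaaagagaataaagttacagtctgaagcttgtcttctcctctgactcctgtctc
RT1-Da: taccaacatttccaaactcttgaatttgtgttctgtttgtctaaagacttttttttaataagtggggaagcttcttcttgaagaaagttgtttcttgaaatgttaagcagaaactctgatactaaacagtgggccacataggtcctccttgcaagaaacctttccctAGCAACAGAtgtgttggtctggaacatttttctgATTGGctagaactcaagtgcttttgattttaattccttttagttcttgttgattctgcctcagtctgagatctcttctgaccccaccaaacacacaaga
RT1-CE5: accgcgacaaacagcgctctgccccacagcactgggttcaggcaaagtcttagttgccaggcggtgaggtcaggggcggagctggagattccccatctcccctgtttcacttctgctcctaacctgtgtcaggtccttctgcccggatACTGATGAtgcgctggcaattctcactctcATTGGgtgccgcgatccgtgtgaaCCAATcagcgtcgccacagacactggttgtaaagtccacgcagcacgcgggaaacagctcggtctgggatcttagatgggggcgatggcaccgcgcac
RT1-A1: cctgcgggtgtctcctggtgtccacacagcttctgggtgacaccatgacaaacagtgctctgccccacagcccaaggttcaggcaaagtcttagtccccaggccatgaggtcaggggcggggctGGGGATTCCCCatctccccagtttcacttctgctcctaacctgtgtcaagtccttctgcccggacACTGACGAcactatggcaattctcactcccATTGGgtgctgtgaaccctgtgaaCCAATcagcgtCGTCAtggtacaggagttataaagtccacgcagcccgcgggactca

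The motif letters and spacing were chosen after these sequences had been read, so the matches are descriptions. The X box core was found in 4 of 4 class II promoters and 2 of 9 class I promoters, against 18.1% of the 33469 RefSeq promoters of the same length. The Y box was found in 4 of 4 class II and 8 of 9 class I promoters, against 37.5% of all promoters. An X box core followed 30 to 36 bases on by ATTGG, the Y box read on the other strand, stood in RT1-Bb, RT1-Db1 and RT1-Da at a distance of 33, 33 and 34 bases, and in 19 promoters in all, or 0.0568%. In RT1-Ba the match to the X box core lay after the gene start, 34 to 42 bases on, so it is not at the place seen in the other 3. Among class I promoters, ACTGANGA was found in 6 of 9 (4.47% of all promoters), the kappaB-like motif in 5 of 9 (6.16%) and TGACG in 3 of 9 (21.2%). The spaced pair was found in 1 class I promoter, RT1-CE10, at 34 bases. Among class II promoters, ACTGANGA was found in 1 of 4 (RT1-Db1), TGACG in 1 of 4 (RT1-Ba) and the kappaB-like motif in 0 of 4. A match is not evidence of binding, and no match says nothing of the factor.

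Values are those of the deposited comparison of the diets, which gives for each gene a log2 fold change (positive where 5X-MTHF was higher) with its F statistic and p-value, the average read abundance over all libraries as log2 counts per 1000000 reads (log2 CPM), and a false discovery rate (FDR), which is the p-value adjusted over all genes and is printed below as the adjusted p. The deposited per-library columns could not be tied to dams by their labels, so no value per dam and no depth per library is given here. An approximate standard error (SE) was taken from each fold change and its F statistic, with an approximate 95% interval. Where a count gives genes at p under 0.05, that p is unadjusted. Average log2 CPM is not scaled to gene length, so it served to choose which genes are named and not to compare expression between genes.

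Across the region the listed fold changes centred on 0, with 48 genes higher and 50 lower in 5X-MTHF and a median log2 fold change of -0.01. An absolute log2 fold change under 0.2 was listed for 60 of the 98 genes. An unadjusted p under 0.05 was listed for 13 genes (13.3%), beside 14.6% of all 12828 genes. Of the 98 genes, 8 were higher at that p, beside 8.4% of all genes, and 5 were lower at that p, beside 6.22%. With p-values adjusted over all genes, 0 of the 98 passed 0.05 (background 0.0078%, 1 gene), and 4 had a listed FDR under 0.25 (background 3.17%). The study's own analysis, with DESeq2, reported many more genes at an adjusted p up to 0.05. Its supplementary list of DESeq2 results holds 16 of the 98 genes, beside 2008 of all 12828, with the same sign in all 16. Which of the 16 passed 0.05 there is not given here. A log2 fold change below 0 was listed for 48.3% of all genes. The 272 genes on the rest of chromosome 20 had a median of 0.002 and 16.9% with p under 0.05.

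**Figure D1:**
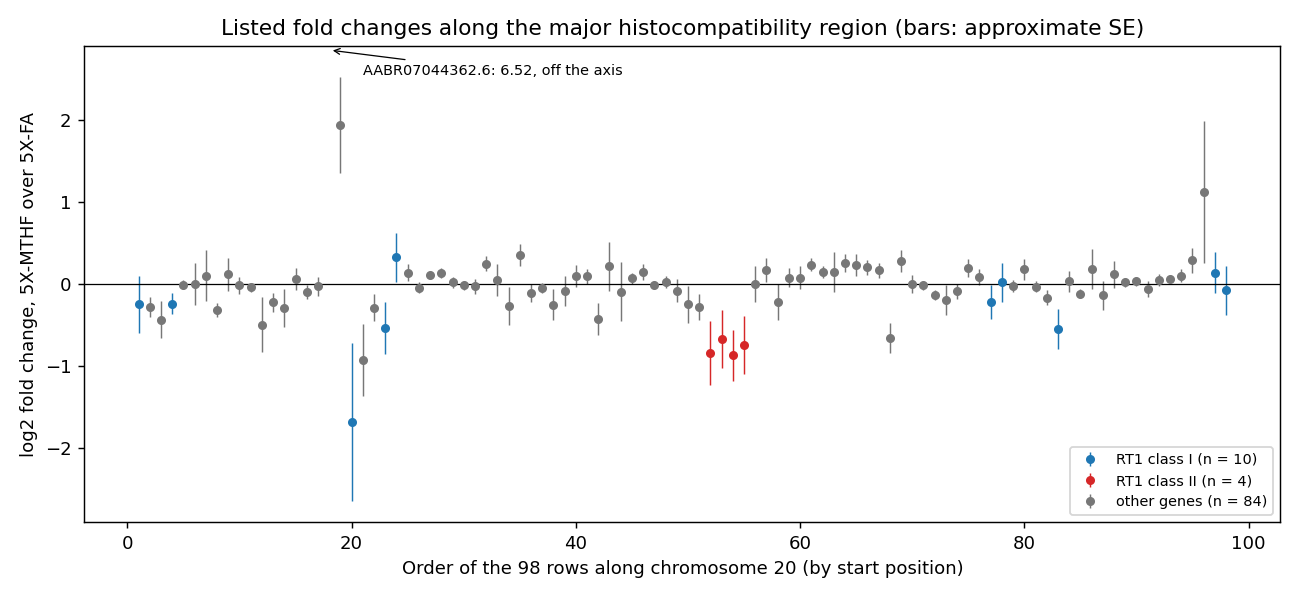
Log2 fold change of 5X-MTHF over 5X-FA (vertical axis) for the 98 genes in their order along chromosome 20 (horizontal axis), with bars for the approximate SE and colours for class I, class II and other genes. Most points lie near 0, the 4 class II genes sit together between -0.87 and -0.67, and AABR07044362.6, at 6.52, lies beyond the axis.

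The 4 class II genes were all listed lower in 5X-MTHF, with a median log2 fold change of -0.79 against 0.006 for all genes. RT1-Db1 (ENSRNOG00000033215, 4087618 to 4097190), a class II D beta chain, had a log2 fold change of -0.87 (approximate SE 0.31), or 45.2% lower, with adjusted p = 0.275. RT1-Bb (ENSRNOG00000032708, 4039413 to 4049711), the B beta chain, had -0.84 (SE 0.39), or 44.1% lower, with adjusted p = 0.35. These are the beta chains of the 2 class II molecules in the table, and only that of RT1-Db1 had an interval that left out 0, from -1.55 to -0.18.

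RT1-Da (ENSRNOG00000032844, 4127644 to 4132616), the alpha chain that pairs with the D beta chain, had a log2 fold change of -0.75 (SE 0.35), or 40.4% lower, with adjusted p = 0.358. RT1-Ba (ENSRNOG00000000451, 4066132 to 4070721), the alpha chain of the B molecule, had -0.67 (SE 0.36), or 37.0% lower, with adjusted p = 0.41. The alpha and beta chains of each molecule thus had fold changes whose difference was smaller than either one's SE. The 4 genes share the same dams and the same dissected tissue, and are not independent of each other.

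The class II genes also had wide errors. Their median approximate SE was 0.35, against 0.18 for the 790 genes outside the region within the same range of average log2 CPM (2.18 to 2.84), of which 9.87% had p under 0.05. Of the 4 class II intervals, 3 covered 0. In the same comparison markers of the arcuate nucleus had a median of -0.96 and those of striatum 1.58, and the part of this in the class II values was not tested.

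**Figure D2:**
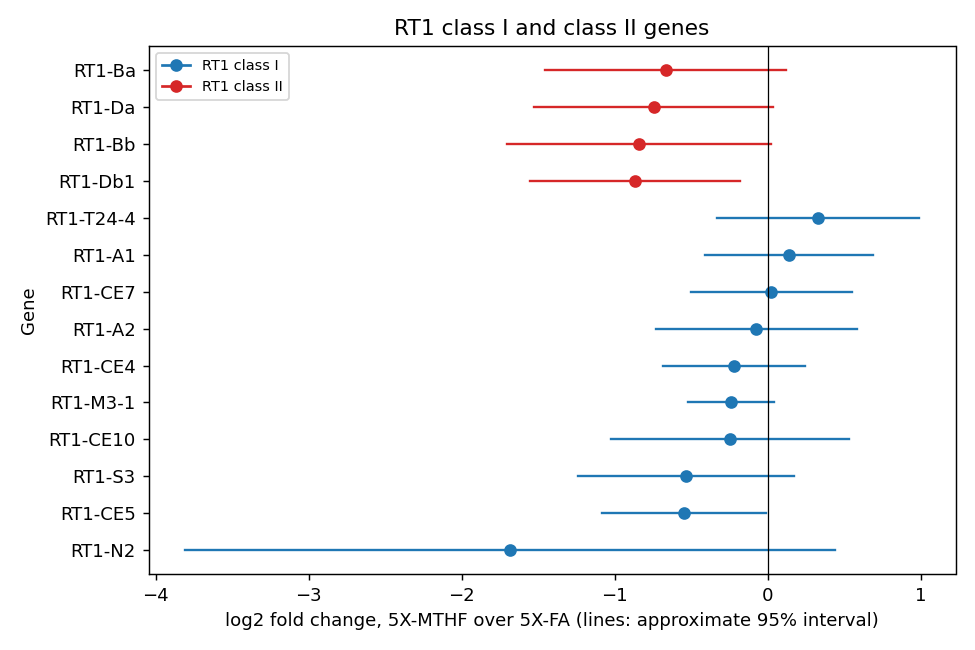
Log2 fold change of 5X-MTHF over 5X-FA (horizontal axis, points) with approximate 95% intervals (lines) for the 10 RT1 class I and 4 RT1 class II genes. The 4 class II points lie between -0.87 and -0.67, the class I points spread from -1.68 to 0.33, and the intervals of RT1-Db1 and RT1-CE5 are those that leave out 0.

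The 10 class I genes were spread on both sides of 0, with 3 higher, 7 lower and a median of -0.23. The classical class I genes RT1-A1 (ENSRNOG00000038999) and RT1-A2 (ENSRNOG00000030712) had log2 fold changes of 0.14 (SE 0.25, adjusted p = 0.83) and -0.07 (SE 0.30, adjusted p = 0.93). Their rows overlap by 3555 bases, and each interval covered 0 widely. RT1-A1 and RT1-A2 are also the last rows inside the limit of the region, and the next genes along the chromosome, Vps52 and Rps18, had 0.22 and 0.08. At the other end RT1-CE10 is the first row of chromosome 20 in the table. On GRCr8 its promoter (from 3384930) lies near those of RT1-CE5 (3484041) and RT1-CE4 (3509107). In Rnor_6.0 RT1-CE10 stands far from both, so the lower limit of the region depends on the build.

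Of the RT1-CE genes, which belong to a cluster of class I copies, RT1-CE5 (ENSRNOG00000000723, 4892702 to 4896991) had a log2 fold change of -0.55 (SE 0.24), or 31.6% lower, with adjusted p = 0.338 and an interval from -1.09 to -0.01. RT1-CE4 had -0.22 (SE 0.21, adjusted p = 0.658), RT1-CE10 had -0.25 (SE 0.35, adjusted p = 0.782) and RT1-CE7 had 0.02 (SE 0.24, adjusted p = 0.976). The rows of RT1-CE4, RT1-CE7 and RT1-CE5 overlap one another, and RT1-CE4 and RT1-CE7 span 4 genes that are no class I genes, Ddx39b, Atp6v1g2, Nfkbil1 and LOC102549726. The 4 CE intervals overlapped one another, and how reads were divided among them is not given in the sources used here.

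Among the other class I genes, RT1-M3-1 (ENSRNOG00000000763, 1814661 to 1818800) had a log2 fold change of -0.24 with the smallest SE of the class, 0.13 (adjusted p = 0.406). RT1-S3 had -0.54 (SE 0.32, adjusted p = 0.46) and RT1-T24-4 had 0.33 (SE 0.30, adjusted p = 0.644). RT1-N2 had the lowest value of all 98 genes, -1.68, with an SE of 0.96 and adjusted p = 0.442. Some class I genes are close copies of one another, and the spans of 8 of the 14 RT1 rows share bases with another row (RT1-M3-1 does not). How reads from such copies or shared spans were assigned is not given in the sources used here, so their values are uncertain. The dams came from an outbred stock, and reads were aligned to the Rnor_6.0 reference. The part of RT1 sequence or copy differences between dams in the values of either class, or of rows among them, was not tested. The median SE of the class was 0.27, against 0.14 for the 5291 genes outside the region in the same range of average log2 CPM (1.24 to 4.71), of which 12.2% had p under 0.05.

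**Figure D3:**
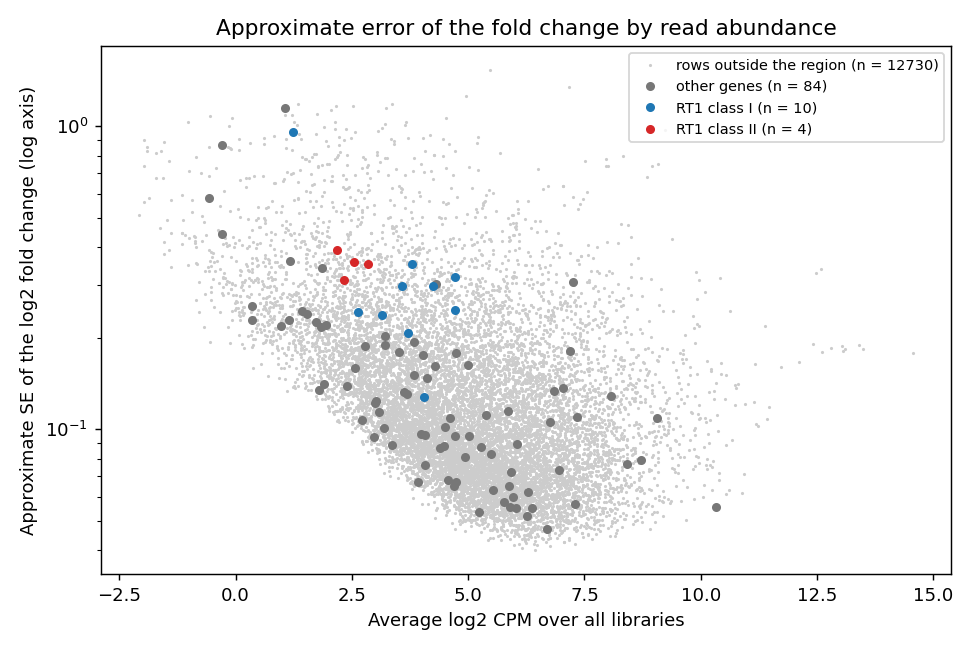
Approximate SE of the log2 fold change (vertical, log axis) against average log2 CPM over all libraries (horizontal axis) for 12730 genes outside the region and the 98 genes inside it, by class. The class II genes, with a median SE of 0.35, and most class I genes lie in the upper part of the cloud at their abundance.

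The run of rows around RT1-N2, RT1-S3 and RT1-T24-4 held the extremes of the region, from -1.68 to 6.52 over 6 rows besides the antisense row described below. AABR07044362.6 (ENSRNOG00000060523, 3134704 to 3135301), a processed pseudogene, had a log2 fold change of 6.52 (SE 1.15, adjusted p = 0.167), the largest in the table in either direction. Its average log2 CPM was 1.06, and whether one dam or several carried its reads cannot be seen without values per dam. AABR07044362.3 (ENSRNOG00000058490), a protein-coding row that contains RT1-N2, had 1.94 (SE 0.58, adjusted p = 0.241) at an average log2 CPM of -0.58.

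AABR07044362.5, a second processed pseudogene within AABR07044362.3, had a log2 fold change of -0.92 (SE 0.44, adjusted p = 0.361). AABR07044362.4, annotated as antisense and overlapping RT1-S3 and RT1-T24-4, had -0.29 (SE 0.16, adjusted p = 0.441). Overlapping rows in this run thus had opposite signs, RT1-N2 at -1.68, with an interval that covered 0, inside a row at 1.94. The study's methods describe strand-specific libraries, and the strand setting used in counting is not given in the sources used here, so how reads were divided between RT1-S3, RT1-T24-4 and the antisense row is uncertain. At the far end of the region a pseudogene next to RT1-A1, AABR07044420.2, had 1.13 (SE 0.87, adjusted p = 0.573) at an average log2 CPM of -0.28.

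Of the 19 other genes chosen for their roles in antigen processing, complement, the tumor necrosis factor cluster and heat shock, 5 had a row and 14 were not analysed here. Tap1, a subunit of the peptide transporter, had a log2 fold change of -0.28 (SE 0.16, adjusted p = 0.447). Psmb9, a subunit of the immunoproteasome, had -0.25 (SE 0.23, adjusted p = 0.647). Together with the class II genes they form a run of neighbours from Psmb9 to RT1-Da in which 6 of 6 were lower. The median of that run, -0.71, lies among the class II values, and Tap1 and Psmb9 were nearer 0.

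C2, a complement protease, had a log2 fold change of -0.19 (SE 0.18, adjusted p = 0.649). Aif1, the microglial calcium-binding protein also known as IBA1, had 0.29 (SE 0.15, adjusted p = 0.401). Nfkbil1, named for its likeness to NF-kappaB inhibitors, had -0.03 (SE 0.07, adjusted p = 0.866). Aif1 and the class II genes, both used as marks of microglia and macrophages, therefore had opposite signs.

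The other genes had a median of 0.01, and 11 of 84 (13.1%) had a listed p under 0.05, beside 14.6% of all genes. Of the 84, 8 were higher with p under 0.05, among them AABR07044362.6 and AABR07044362.3, beside 8.4% of all genes that were higher with p under 0.05. Mdc1, a mediator of the DNA damage checkpoint, had a log2 fold change of 0.35 (SE 0.13, adjusted p = 0.287), and Dhx16, an RNA helicase of the spliceosome, had 0.25 (SE 0.10, adjusted p = 0.287). Abcf1, an ATP-binding cassette protein of translation initiation, had 0.11 (SE 0.05, adjusted p = 0.336). Dhx16 shares 13694 bases with Ppp1r18, which had 0.05 (SE 0.19, adjusted p = 0.928).

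Rnf5, a ubiquitin ligase of the endoplasmic reticulum, had a log2 fold change of 0.24 (SE 0.08, adjusted p = 0.271), Ppt2, a lysosomal thioesterase, 0.25 (SE 0.11, adjusted p = 0.327), and Fkbpl, an FK506-binding-protein-like gene, 0.20 (SE 0.09, adjusted p = 0.331). They lie in a run of 11 neighbours from Notch4 to Atf6b, of which 10 were higher, with a median of 0.17. Gpsm3, a regulator of G-protein signalling in that run, was the exception at -0.22 (SE 0.22, adjusted p = 0.672). These runs were picked after their values were seen.

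Of the 84 other genes, 3 were lower at p under 0.05, beside 6.22% of all genes. Zfp57, the zinc-finger protein that maintains methylation at imprinted loci, had a log2 fold change of -0.32 (SE 0.09, adjusted p = 0.238), or 19.7% lower. AABR07044388.2 (ENSRNOG00000033581, 4436419 to 4486680), an unnamed processed transcript, had -0.66 (SE 0.18, adjusted p = 0.238), or 36.5% lower. Tmlhe, an enzyme of carnitine synthesis, had -0.28 (SE 0.12, adjusted p = 0.338).

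The 5 genes with the highest average log2 CPM had log2 fold changes from -0.11 to 0.18. Gabbr1, a GABA-B receptor subunit, had a log2 fold change of -0.01 (SE 0.06), and Tubb5, a beta tubulin, -0.11 (SE 0.11). Prrc2a, a reader of RNA methylation, had 0.10 (SE 0.08), Ddx39b, a splicing and export helicase, -0.02 (SE 0.08), and Atp6v1g2, a subunit of the vacuolar proton pump, 0.18 (SE 0.13). All 5 intervals covered 0.

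Genes outside the region on a list for class I antigen processing and loading had log2 fold changes from -0.30 to 0.19. Of 10 with a row (of 11 listed), 3 were higher and 7 lower, with a median of -0.11. At p under 0.05 there were 2 (20%), beside 14.6% of all genes. Calr, a chaperone of the loading complex, had a log2 fold change of 0.13 (SE 0.05, adjusted p = 0.3), and Tapbpl, the peptide editor TAPBPR, had -0.30 (SE 0.10, adjusted p = 0.27). B2m, the light chain shared by class I molecules, had 0.06 (SE 0.14, adjusted p = 0.869), Canx -0.13 (SE 0.09) and Hspa5 -0.02 (SE 0.10).

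On the class II side, 8 of 10 listed genes had a row, with 2 higher, 6 lower and a median of -0.04. In the deposited test 0 of them had p under 0.05, beside 14.6% of all genes. Cd74, the invariant chain that escorts class II molecules, had a log2 fold change of -0.77 (SE 0.36, adjusted p = 0.349), or a fold of 0.585, within the range of the 4 class II genes. Ctss, the protease that trims the invariant chain, had the other sign, 0.37 (SE 0.17, adjusted p = 0.344). Rfx5, a subunit of the X box factor, had -0.21 (SE 0.13, adjusted p = 0.48), Ctsb -0.08 (SE 0.06) and Ctsl 0.14 (SE 0.11).

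Of 13 interferon response genes with a row (of 20 listed), 12 were lower and 1 higher, with a median of -0.17. Irf9, a subunit of the interferon-activated factor ISGF3, had a log2 fold change of -0.36 (SE 0.14, adjusted p = 0.292). It was the only one of the 13 with an unadjusted p under 0.05 (7.69%, beside 14.6% of all genes). Stat2, which acts with it in interferon signalling, had 0.01 (SE 0.07), and Ifi27 had -0.02 (SE 0.28). Of 8 complement genes outside the region with a row (of 10 listed), 5 were higher and 3 lower, and C1s, a protease of the first component, had -0.60 (SE 0.20, adjusted p = 0.26). C1qa and C1qb, which encode chains of C1q, had 0.29 (SE 0.15) and 0.35 (SE 0.18).

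**Figure D4:**
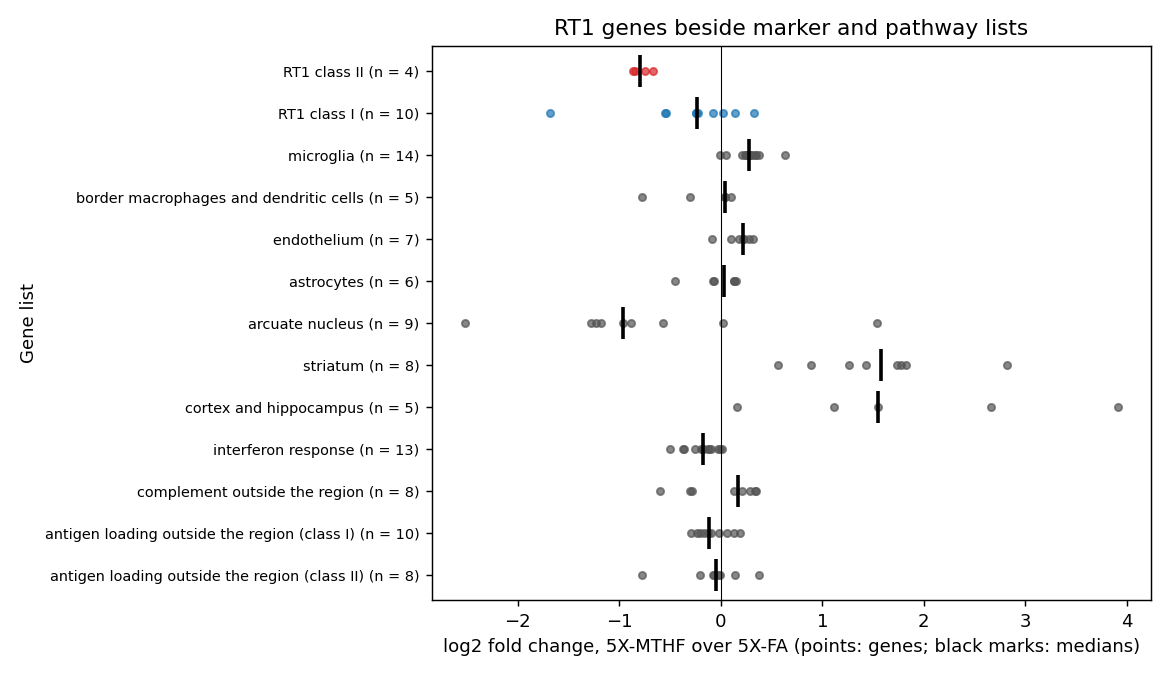
Log2 fold change of 5X-MTHF over 5X-FA (horizontal axis) for each gene (points) of the RT1 classes and of the marker and pathway lists, with black marks at the medians. The class II genes (median -0.79) lie below 0 beside microglial markers at 0.28, and the lists furthest from 0 are arcuate (-0.96), striatal (1.58) and cortical and hippocampal (1.55) markers.

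Markers of immune cells did not share one direction. Of 14 microglial markers with a row (of 16 listed, Aif1 among them), 13 were higher, with a median of 0.28, and Tmem119, a marker of resident microglia, had a log2 fold change of 0.63 (SE 0.23, adjusted p = 0.281). Of 5 border macrophage and dendritic cell markers with a row (of 12), 3 were higher and 2 lower, with a median of 0.04, and Cd74 is one of them. Of the T and NK cell list 1 of 11 had a row (Cd4, 0.34, adjusted p = 0.721), and of the B and plasma cell list 1 of 6 (Jchain, 0.39, adjusted p = 0.595). Endothelial markers were higher in 6 of 7 (median 0.22) and oligodendrocyte markers in 6 of 6 (median 0.10).

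Several markers of the dissected nucleus and of neighbouring brain regions had large listed fold changes. In the deposited comparison, 0 of the arcuate, striatal, cortical and hippocampal markers passed an adjusted p of 0.05. The study reported Esr1, Kiss1, Prlr and the striatal marker Drd2 as differentially expressed in its DESeq2 analysis. Its qRT-PCR had Esr1, Kiss1 and Prlr lower and Drd2 higher in 5X-MTHF at parturition. Arcuate markers had a row for 9 of 10 listed genes, Pomc and Agrp among them, with a median of -0.96 and 7 lower. Esr1, Kiss1 and Prlr had log2 fold changes of -1.28, -2.52 and -1.18. They are the 3 arcuate markers with an unadjusted p under 0.05 (33.3%, beside 14.6% of all genes). Th, the enzyme of dopamine synthesis, had the other sign, 1.54 (SE 0.93). Striatal markers had a median of 1.58, with 8 of 8 higher and 6 at p under 0.05 (75%). Cortical and hippocampal markers had a median of 1.55, with 5 of 5 higher and 3 at p under 0.05 (60%), beside 14.6% of all genes. Choroid plexus and meningeal markers had a median of -0.24 with 4 of 6 lower, and among astrocyte markers (median 0.03) Gfap had -0.45 (SE 0.17, adjusted p = 0.281). Their levels in each library cannot be given here, and the part of tissue composition in the values of the RT1 genes was not tested.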

How the data were processed

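RNA from the arcuate nucleus of 10 dams, 5 for each diet, was sequenced as poly-A libraries. Per the study's methods and the submitters' processing notes, reads were trimmed with Trim Galore 0.5.0, aligned to Rnor_6.0 with STAR 2.6.0c, counted with HTSeq 0.6.1p2 and analysed in R 3.6.1, where DESeq2 1.26.0s is named. The deposited table holds the authors' own comparison of 5X-MTHF with 5X-FA: per gene, a log2 fold change with its F score, p-value and FDR, and the mean abundance as log2 CPM. Its layout is that of a quasi-likelihood F test, and the tool that made it is not given in the sources used here. These columns are used as a description, because the 10 deposited per-library columns, headed by numbers alone, matched no sample label and were used in no step. Fold changes, p-values and FDR in the text are therefore the deposited ones, and no test was run anew on the dams. The direction was read from a supplementary table of the study that names 5X-FA as its reference.

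The approximate SE was obtained by dividing the size of the log2 fold change by the root of F. Approximate 95% intervals use a t quantile with the median implied degrees of freedom, 10.6. A Benjamini-Hochberg adjustment of the 12828 p-values gave the deposited FDR again, to within 2.1e-14. The calculations were tested on simulated data. Python 3.11.15, pandas 2.3.3, numpy 2.4.6, scipy 1.17.1 and matplotlib 3.10.9 were used. The study's methods give an approximate depth per sample, and the depth each library reached, and with it the counting precision, is unknown here. Dams are separate animals, and nothing in the labels names a batch.

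The members and gene lists were chosen with earlier results of these data known. Genes named in the text were all RT1 genes, 19 genes chosen by role, members with p under 0.05, the 5 highest and 5 lowest fold changes, the 5 of highest average log2 CPM, list genes outside the region with p under 0.05 and the 3 of highest average log2 CPM of each pathway list; some genes that this rule names are not reported here. Other genes named (Ppp1r18, Gpsm3, Cd74, Rfx5, Cd4, Jchain and those at the limits or overlapping RT1 rows) were chosen after their values were seen. Promoters are RefSeq sequences of GRCr8.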

Additional observations from a re-analysis of the deposited data

How the results depend on the processing

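With genes limited to an average log2 CPM of at least 4, the count at p under 0.05 went from 13 to 6 for all 98 genes (11.5% of the 52 left, beside 16.2% of all genes), from 11 to 6 for the other genes, and from 1 to 0 for both class I, with 4 genes left, and class II, with 0 left. With a threshold of p under 0.01 it was 4 for all (4.08%, beside 3.95% of all genes), 4 for the other genes and 0 for both classes. With a normal reference in place of the F test's, it was 23 for all (23.5%), 19 for the other genes (22.6%) and 3 for class II, beside 19.8% of all genes. With adjusted p-values under that reference it went from 0 to 4 for all (4.08%) and from 0 to 4 for the other genes (4.76%), beside 4.41% of all genes. The normal reference ignores the uncertainty of the variance. The medians of the 4 groups moved by less than the median approximate SE of their genes under every alternative that gave a value. The alternatives include the one added after seeing the data, without AABR07044362.6 (-0.01 for all 98 genes, 0.005 for the other genes). This limit is loose, since such an SE is that of a gene and not of a median. For class I it was 0.27 beside a median of -0.23, and for all 98 genes 0.13 beside -0.01. The median of all 98 changed sign, to 0.02, at an average log2 CPM of at least 4. Limits to protein-coding genes or to an average log2 CPM of at least 1 removed no class I or class II gene, so those medians could not move. Leaving out possible copies by name also left the class II median at -0.79, so its stability was not put to a test. No value was possible for class II at that abundance limit, or for class I without possible copies, since no genes were left. Possible copies were picked by a pattern in their names and not by sequence, so this does not show that all class I genes are copies. No paired analysis was possible because the columns per library carry no replicate number of the labels. For the same reason leaving out each dam, another pseudocount, a filter on low values and a second count test were not run, so it is not known here whether any value rests on 1 dam. What depth limits cannot be said here, since the study states only an approximate depth per sample and the depth of each library is unknown.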
